A study of Mus musculus with 6 samples.

Results

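The Bcl2 family decides whether a cell releases cytochrome c from its mitochondria and so enters the intrinsic pathway of apoptosis. Pro-survival members hold the effectors in check, the effectors Bax and Bak1 form pores in the outer mitochondrial membrane, and the BH3-only members carry stress signals by binding the others. In beta cells the balance between these groups bears on how islet mass is kept after birth and on how the cells withstand stress. The 10 genes followed here were chosen by name. They are Bcl2, Bcl2l1 and Mcl1 (pro-survival), Bax and Bak1 (effectors), and Bid, Bad, Bcl2l11, Bbc3 and Pmaip1 (BH3-only). Probe sets were taken where the array annotation gave a single symbol and that symbol was one of these names, which gave 29 probe sets of 9 genes among the 45037 non-control probe sets of the array. Bax had no probe set with a single symbol and was not analysed here.

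The study overexpressed Prox1, a homeobox transcription factor, and profiled the pancreas of NMRI mice as a whole organ on postnatal day 15, each sample on its own Affymetrix array. The 3 Prox1-OE samples carried Jojo-Prox1 together with Ngn3-cre, and the 3 control samples carried Ngn3-cre alone, so that both groups had the Cre transgene. Ngn3-cre is active in the progenitors of endocrine cells, whereas each array measured RNA of the whole organ. Every value below is a probe set value on the log2 scale, in which fewer cells of a type and less RNA per cell cannot be told apart.

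The tissue was exocrine pancreas with some islet and immune RNA. The brightest acinar genes, the elastases Cela3b and Cela2a and the carboxypeptidase Cpa1, averaged 14.79, 14.75 and 14.61 in Prox1-OE samples and 14.89, 14.81 and 14.67 in control samples, near the highest value of any array (14.92). Of 10 measured beta cell genes, 10 had a lower mean in Prox1-OE samples, as had 9791 of all 18193 genes by their brightest probe set. In limma 0 passed an adjusted p of 0.05, against 0.022% of all genes. At an unadjusted p under 0.05, 6 were found, against 6.72%. The groups did not overlap for 6, against 12.1%. The list mean was -0.71 to -0.51 in Prox1-OE and -0.24 to 0.22 in control samples, relative to the control mean. The differences of the 10 genes were uneven, from -1.40 to -0.03. The 3 brightest, Ins2, Iapp and Ero1b, differed by -0.18, -0.15 and -0.03, and the groups overlapped for each. Prox1 itself averaged 5.20 ± 0.19 in Prox1-OE and 5.14 ± 0.41 in control samples (SD, n = 3 each) on its brightest probe set, a difference of 0.06 ± 0.19 (SE). Its other probe sets, both dim, differed by -0.03 and 0.02. Whether any of these probe sets reads the transgene's transcript was not tested, so the values do not check the labels. In a principal component analysis, Prox1-OE replicate 1 stood apart on the first axis (31.4% of variance, score -42.3, others -6.15 to 21.1) and control replicate 3 on the second (22.7%, score 31.9, others -21.1 to 6.93).

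None of the 9 measured Bcl2 family genes passed the test for a difference between Prox1-OE and control pancreas. Of the 29 probe sets, 0 passed an adjusted p of 0.05 over all probe sets in limma, where 5 of 45037 probe sets (0.0111%) did, and the smallest adjusted p of a family probe set was 0.779. At an unadjusted p under 0.05, 2 of the 29 (6.9%) were found, against 6.15% of all probe sets. Of these 1 was higher, as were 2.65% of all probe sets, and 1 lower, as were 3.5%. The groups did not overlap for 3 of the 29 (10.3%), against 11.4% of all probe sets. In 2 of the 3 the Prox1-OE samples were higher (4.6% of all probe sets) and in 1 lower (6.8%). These shares lie near those of the whole array. The differences, Prox1-OE minus control, ran from -0.31 to 0.29, with 15 probe sets higher and 14 lower and a median of 0.0044, against a median of -0.02 over all probe sets. The 95% intervals of single probe sets reached at most from 0.67-fold to 1.51-fold, and from 0.67-fold to 1.40-fold for the 17 probe sets with a mean level of at least 5. These are folds of array signal. For the dim probe sets they may understate a change of mRNA, since RMA compresses dim values. The dim ones are all probe sets of Bak1, Bid and Pmaip1 and some of Bcl2l1 and Bcl2l11. A change in the beta cells alone, a small part of the tissue, was not measured.

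**Figure D1:**
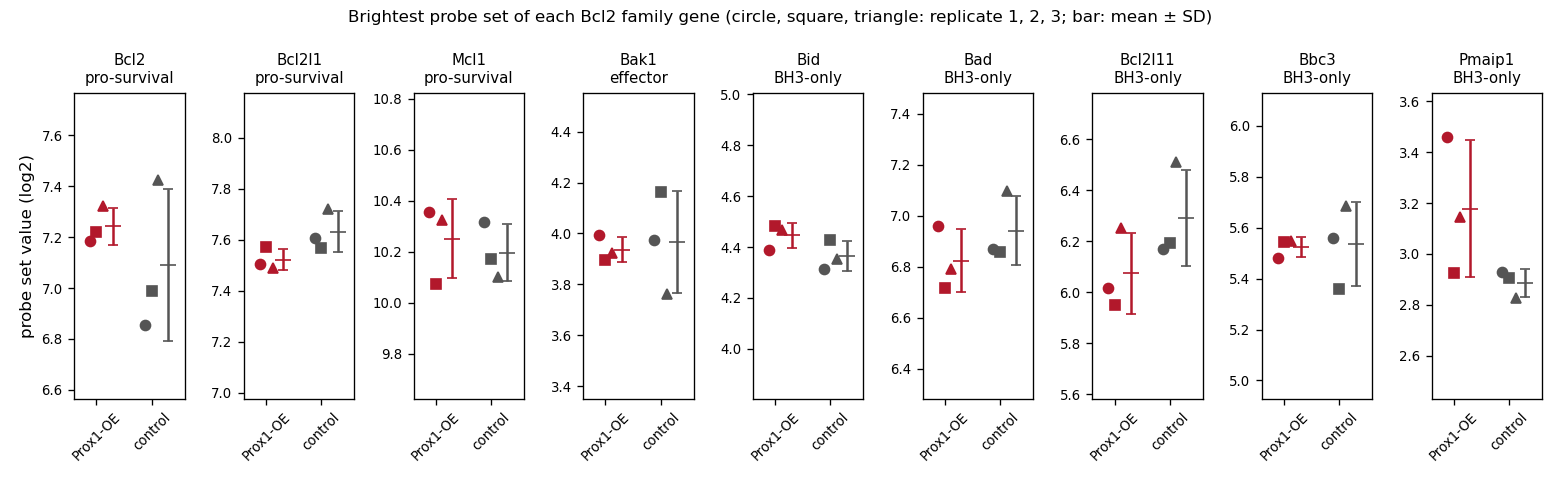
Log2 value of the brightest probe set of each of the 9 measured genes, in its own panel spanning 1.2 log2 units, with Prox1-OE samples at left (red) and control samples at right (grey). Symbols mark replicates 1 to 3 and bars the mean ± SD of 3 samples. The groups overlap in every panel, and Pmaip1 spreads most among the Prox1-OE samples (2.93 to 3.46).

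Bcl2, the founding pro-survival member, had 5 probe sets. The brightest read 7.18, 7.22 and 7.32 in Prox1-OE samples 1, 2 and 3, against 6.86, 6.99 and 7.43 in control samples 1, 2 and 3. The Prox1-OE samples lay close together, between the 2 lower control samples and control replicate 3. The difference was 0.15 ± 0.15 (SE; 95% interval -0.18 to 0.48; limma adjusted p = 0.891). It was 0.32 without control replicate 3 and 0.04 without control replicate 1, so its size rested on single control samples. The other 4 probe sets of Bcl2 differed by 0.19, 0.0044, -0.22 and 0.02. The negative one rested on Prox1-OE replicate 1, which read 5.15 against 5.58 and 5.79 in the other Prox1-OE samples and 5.67 to 5.76 in control samples, and without that replicate the difference was -0.04.

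Bcl2l1 encodes the pro-survival protein Bcl-xL, and a shorter splice form of it is pro-death. Its brightest probe set read 7.51, 7.57 and 7.49 in Prox1-OE samples, against 7.61, 7.57 and 7.72 in control samples. The groups overlapped only where the highest Prox1-OE value met the lowest control value, and the difference was -0.11 ± 0.09 (SE; 95% interval -0.31 to 0.09; limma adjusted p = 0.867). A second probe set of the gene, dim on all arrays, read 3.16, 3.11 and 3.33 in Prox1-OE samples, against 3.54, 3.34 and 3.65 in control samples. There the groups did not overlap, and the difference was -0.31 ± 0.11 (SE; limma adjusted p = 0.779), from -0.40 to -0.24 without any 1 sample. The remaining probe sets differed by -0.15 and 0.10, both also dim. The gene thus had 3 probe sets with a lower and 1 with a higher mean in Prox1-OE samples, and none of them passed the test.

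Mcl1, a short-lived pro-survival protein, had 6 probe sets, all bright (mean levels 7.63 to 10.2). By their names, the brightest and some of the others can also bind other transcripts. The brightest read 10.36, 10.07 and 10.33 in Prox1-OE samples, against 10.32, 10.17 and 10.10 in control samples. Prox1-OE replicate 2 was the lowest of the 6 samples and Prox1-OE replicate 1 the highest, and the difference was 0.06 ± 0.11 (SE; 95% interval -0.20 to 0.31; limma adjusted p = 0.955). Prox1-OE replicate 1 was the highest sample on 5 of the 6 probe sets, where it was the highest for 17.1% of all probe sets. On 1 probe set the groups did not overlap. It read 9.68, 9.42 and 9.38 in Prox1-OE samples, against 9.36, 9.28 and 9.27 in control samples. The difference there was 0.19 ± 0.10 (SE; limma adjusted p = 0.822), and 0.10 without Prox1-OE replicate 1. Because the 6 probe sets are annotated to 1 gene and were read in the same samples, they are not separate evidence.

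**Figure D2:**
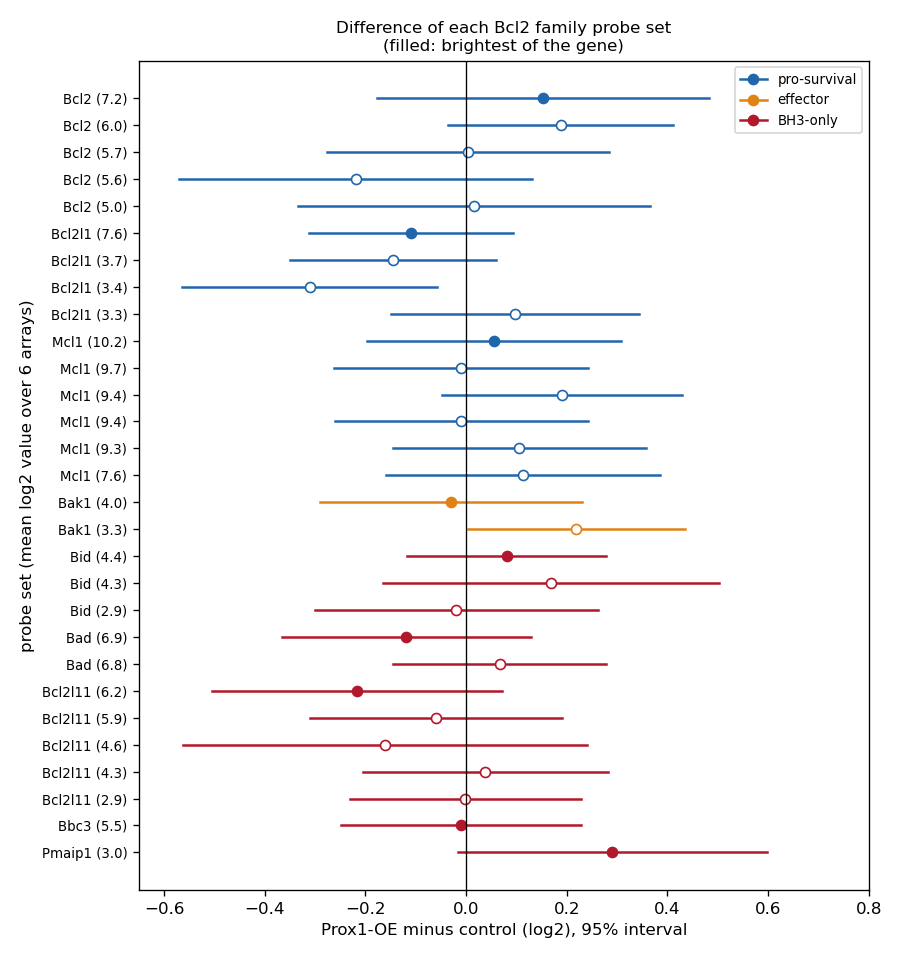
Difference of each of the 29 probe sets (Prox1-OE minus control, log2, x axis) with its 95% interval from limma, by gene, with the mean level over 6 arrays in brackets. Filled points mark the brightest probe set of a gene. Of the intervals 27 hold 0, and the probe sets of a gene lie on both sides of 0 for all 7 genes that have more than 1.

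Bak1, the effector that could be measured, was dim on both of its probe sets. The brighter read 3.99, 3.90 and 3.92 in Prox1-OE samples, against 3.98, 4.16 and 3.76 in control samples. The Prox1-OE samples lay inside the range of the control samples, and the difference was -0.03 ± 0.11 (SE; 95% interval -0.29 to 0.23; limma adjusted p = 0.979). The dimmer, which by its name can also bind other transcripts, read 3.40, 3.34 and 3.50 in Prox1-OE samples, against 3.10, 3.19 and 3.29 in control samples. These groups did not overlap, with a difference of 0.22 ± 0.10 (SE; limma adjusted p = 0.806). The probe sets of Bak1 therefore gave no single direction.

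Of the BH3-only genes, Bcl2l11, which encodes Bim, a binder of all pro-survival members, had the lowest difference. Its brightest probe set read 6.02, 5.95 and 6.25 in Prox1-OE samples, against 6.17, 6.20 and 6.51 in control samples. In both groups replicate 3 was the highest, and Prox1-OE replicate 3 lay within the control range. The difference was -0.22 ± 0.13 (SE; 95% interval -0.51 to 0.07; limma adjusted p = 0.825), and -0.11 without control replicate 3. The other 4 probe sets differed by -0.06, -0.16, 0.04 and -0.0012, and control replicate 3 was the highest sample on 3 of the 5.

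Bbc3 encodes Puma, a p53 target. It read 5.48, 5.55 and 5.55 in Prox1-OE samples, against 5.56, 5.36 and 5.69 in control samples. The Prox1-OE samples lay inside the control range, with a difference of -0.01 ± 0.11 (SE; 95% interval -0.25 to 0.23; limma adjusted p = 0.994). Its interval lay within 0.25 of 0 on the log2 scale.

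Pmaip1 encodes Noxa, a further p53 target that binds Mcl1. It had the highest difference of the family, on a probe set that was dim on all arrays. It read 3.46, 2.93 and 3.15 in Prox1-OE samples, against 2.93, 2.91 and 2.83 in control samples. Prox1-OE replicate 2 lay within the control range, and replicate 1 stood highest. The difference was 0.29 ± 0.13 (SE; 95% interval -0.02 to 0.60; limma adjusted p = 0.810), and 0.15 without Prox1-OE replicate 1.

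Prox1-OE replicate 1 was also the sample with the highest immune marker levels. Relative to the control mean, the macrophage list of 10 genes was at 1.26, 0.39 and 0.61 in Prox1-OE samples 1, 2 and 3, against -0.13 to 0.11 in control samples, and 9 of its 10 genes had a higher mean in Prox1-OE samples. The B cell list (5 of 8 genes higher) was at 1.26, 0.18 and 0.42 in Prox1-OE samples, against -0.03 to 0.05 in control samples. On the same scale Pmaip1 was at 0.57, 0.04 and 0.26 in Prox1-OE samples, which is the order of both lists. That order was not particular to immune lists. The fibroblast list was at 0.46, 0.06 and 0.13 in Prox1-OE samples 1, 2 and 3, against -0.17 to 0.11 in control samples. The blood endothelium list was at 0.34, 0.04 and 0.13, against -0.41 to 0.24. Unlike the macrophage and B cell lists, these 2 lists overlapped between the groups. The part of immune, fibroblast or endothelial cells in the values of Pmaip1 and Mcl1 was not tested.

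The genes whose levels over the 6 arrays were most like those of Pmaip1, among 9933 genes with a mean of at least 5, were Ahnak2 (Pearson r = 0.998), Coro1a, an actin regulator of leukocytes (r = 0.998), and Psap, the lysosomal prosaposin (r = 0.998). Over 6 arrays, r for the dim Pmaip1 gives much weight to Prox1-OE replicate 1, which read 3.46 against 2.83 to 3.15 on the others. By ranks (Spearman rho), Ahnak2, Coro1a and Psap were at 1, 0.94 and 1. At r above 0.9, 297 genes were like Pmaip1, 74 like Bcl2 and 210 like Bcl2l11. The most like Bcl2 were Klhl42, Cd59a and Hnrnpll (r = 0.994, 0.989 and 0.986), and the most like Bcl2l11 were Mettl22, Ndufv3 and Aif1l (r = 0.991, 0.989 and 0.988). These values describe arrays that share 2 groups and 1 normalization, and carry no test.

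**Figure D3:**
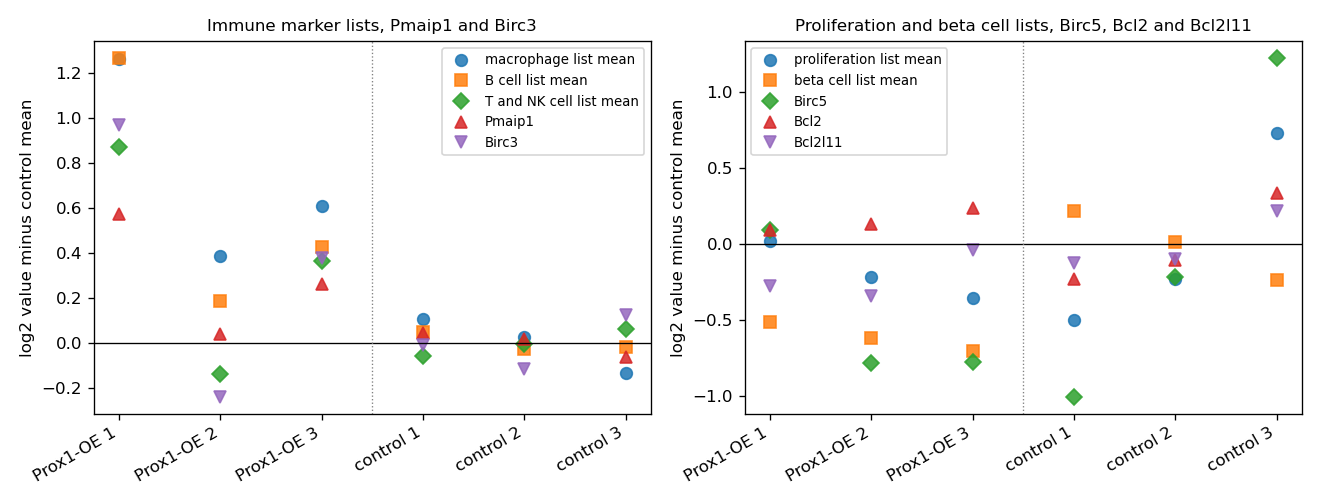
Log2 value minus the control mean (y axis) on each of the 6 arrays (x axis, Prox1-OE at left of the dotted line) for means of marker lists and for single genes. At left, the macrophage and B cell lists (both 1.26 on Prox1-OE replicate 1), the T and NK cell list, Pmaip1 and Birc3 are highest on Prox1-OE replicate 1. At right, Birc5, the proliferation list (0.73), Bcl2 and Bcl2l11 are highest on control replicate 3. Genes are shown on their brightest probe set. Over all 5 probe sets of Bcl2, Prox1-OE replicate 3 was the highest on 4.

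Bid, which caspase 8 cleaves to link death receptors to mitochondria, read 4.39, 4.48 and 4.47 in Prox1-OE samples, against 4.31, 4.43 and 4.35 in control samples on its brightest probe set. The groups overlapped by a single pair of samples, and the difference was 0.08 ± 0.09 (SE; 95% interval -0.12 to 0.28; limma adjusted p = 0.904). Its other probe sets differed by 0.17, which was 0.02 without control replicate 3, and by -0.02.

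Bad, whose phosphorylation downstream of growth factors keeps it inactive, had 2 probe sets of nearly equal brightness. The first read 6.96, 6.72 and 6.79 in Prox1-OE samples, against 6.87, 6.86 and 7.10 in control samples, a difference of -0.12 ± 0.11 (SE; limma adjusted p = 0.886), which was -0.04 without control replicate 3 and -0.19 without Prox1-OE replicate 1. The second read 6.70, 6.82 and 6.86 in Prox1-OE samples, against 6.80, 6.74 and 6.64 in control samples, a difference of 0.07 ± 0.09 (SE; limma adjusted p = 0.931). Control replicate 3 was the highest sample on the first and the lowest on the second, so the probe sets of Bad did not move together.

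Set apart by role, the 15 pro-survival probe sets had 9 higher and 6 lower means in Prox1-OE samples (median difference 0.02). The 14 pro-death probe sets, of Bak1 and the BH3-only genes, had 6 higher and 8 lower (median -0.0058). Over all probe sets, 45.1% were higher. With the brightest probe set per gene, 2 of 3 pro-survival genes and 2 of 6 pro-death genes had a higher mean. None of these genes passed the test.

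The genes around the family were also examined, in 7 lists of the intrinsic and extrinsic apoptosis pathways, of which 65 of 73 genes were measured. Of the 65, 0 passed an adjusted p of 0.05 in limma in either direction, against 0.022% of all genes by their brightest probe set. At an unadjusted p under 0.05, 5 were found (7.69%, with 4 higher and 1 lower), against 6.72% of all genes. Of all 18193 genes, 546 were higher and 676 lower at that threshold. The groups did not overlap for 5 of the 65 (7.69%), against 12.1% of all genes. A higher mean in Prox1-OE samples was seen for 35 of the 65 (53.8%), against 46.2% of all genes. The median difference of the 65 was 0.03, against -0.01 for all genes.

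**Figure D4:**
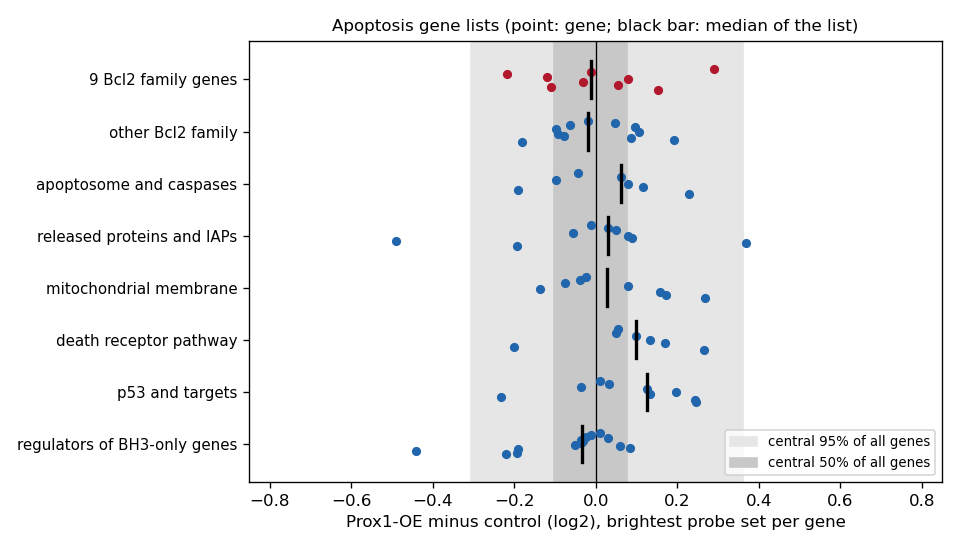
Difference of each gene (Prox1-OE minus control, log2, x axis) by list, on the brightest probe set per gene, with black bars at list medians. Shaded bands span the central 50% and 95% of all genes. Of the 9 family genes all lie inside the 95% band (-0.31 to 0.36). Medians run from -0.03 to 0.13. The lowest is that of the list labelled regulators of BH3-only genes, which also holds regulators of Mcl1. The highest is that of p53 and its targets, of which p53 itself was not measured.

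Other Bcl2 family members numbered 11 of 15 listed, with 5 higher and 6 lower. Hrk, a BH3-only gene of neurons, read 5.37, 5.17 and 5.24 in Prox1-OE samples, against 5.50, 5.51 and 5.31 in control samples, a difference of -0.18 ± 0.10 (SE; limma adjusted p = 0.822). Bmf, a BH3-only gene tied to the cytoskeleton, differed by 0.19 ± 0.17, Bcl2l13 by 0.09 ± 0.09 and Bnip3, a mitochondrial protein of hypoxia and mitophagy, by -0.08 ± 0.08 (SE). All of these intervals held 0.

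Downstream of the family, 4 of 7 measured apoptosome and caspase genes were higher and 3 lower. Dffa, the inhibitor of the apoptotic nuclease, differed by 0.23 ± 0.11, and Casp9, the initiator caspase of the apoptosome, by -0.19 ± 0.13 (SE). Cycs, cytochrome c itself, differed by 0.12 ± 0.14, and Casp6, an executioner caspase, by 0.08 ± 0.10 (SE). None passed the test.

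Of 9 genes of released mitochondrial proteins and caspase inhibitors, 5 were higher and 4 lower, and 2 of them varied with single samples. Birc3, an inhibitor that NF-kB induces in lymphocytes, read 8.10, 6.90 and 7.51 in Prox1-OE samples, against 7.13, 7.02 and 7.26 in control samples. It was highest on Prox1-OE replicate 1, as the immune lists were, and differed by 0.37 ± 0.25 (SE; limma adjusted p = 0.843). Birc5, or survivin, which is made in dividing cells, read 6.01, 5.13 and 5.14 in Prox1-OE samples, against 4.91, 5.70 and 7.14 in control samples. It was highest on control replicate 3, where the mean of 9 proliferation genes was 0.73 above the control mean, against -0.50 and -0.23 on the other control samples and -0.36 to 0.02 on Prox1-OE samples. Birc5 differed by -0.49 ± 0.49 (SE), and the part of dividing cells in it was not tested. Endog, a mitochondrial nuclease, differed by -0.19 ± 0.12, and Birc6 by 0.09 ± 0.09 (SE).

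Among 8 mitochondrial membrane genes, 4 were higher and 4 lower. Opa1, which shapes the inner membrane and its cristae, read 8.38, 8.44 and 8.56 in Prox1-OE samples, against 8.20, 8.11 and 8.27 in control samples. The groups did not overlap, as for 12.1% of all genes, and the difference was 0.27 ± 0.09 (SE; limma adjusted p = 0.777). The mitofusins Mfn1 and Mfn2 differed by 0.17 ± 0.12 and 0.16 ± 0.12, and Ppif, a regulator of the permeability pore, by -0.14 ± 0.11 (SE).

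Of 7 measured death receptor genes, 6 had a higher mean and 1 a lower one in Prox1-OE samples, and 0 passed. Fas, a death receptor, was dim. It read 3.79, 3.86 and 3.79 in Prox1-OE samples, against 3.64, 3.57 and 3.44 in control samples, with no overlap and a difference of 0.27 ± 0.09 (SE; limma adjusted p = 0.777). The receptor adaptor Tradd differed by -0.20 ± 0.13, Cflar, the inhibitor of caspase 8, by 0.17 ± 0.13, and Casp8 by 0.13 ± 0.13 (SE).

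Of the 10 listed genes of p53 and its targets, 9 were measured, and Trp53, the gene of p53 itself, was not. Of the 9, 7 had a higher mean in Prox1-OE samples, against 46.2% of all genes, and 2 a lower one. None of the 9 passed. The groups did not overlap for 2 of the 9 (22.2%), against 12.1% of all genes. Zmat3, a p53 target that binds RNA, read 7.67, 7.78 and 7.73 in Prox1-OE samples, against 7.52, 7.46 and 7.46 in control samples. The groups did not overlap, with a difference of 0.25 ± 0.09 (SE; limma adjusted p = 0.777). Ccng1, cyclin G1, read 10.07, 10.15 and 9.94 in Prox1-OE samples, against 9.89, 9.79 and 9.74 in control samples. It too had no overlap, with a difference of 0.24 ± 0.10 (SE; limma adjusted p = 0.801). The p53 targets inside the Bcl2 family, Bbc3 and Pmaip1, differed by -0.01 and 0.29. Sesn2, a stress-induced sestrin, differed by -0.23 ± 0.14, and Phlda3, an inhibitor of Akt signalling, by 0.13 ± 0.10 (SE). Of the list's other genes, Cdkn1a differed by 0.13 ± 0.12 and Mdm2 by -0.04 ± 0.09 (SE), and the groups overlapped for both.

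The last list held 14 regulators of Bcl2 family genes and proteins, of BH3-only members and also of Mcl1. Of the 14, 4 had a higher mean and 10 a lower one, and 0 passed. Trim17, a ubiquitin ligase that targets Mcl1, was dim. It read 3.80, 3.79 and 3.72 in Prox1-OE samples, against 3.99, 3.96 and 4.02 in control samples, with no overlap and a difference of -0.22 ± 0.08 (SE; limma adjusted p = 0.801). Akt1, the kinase that phosphorylates Bad, differed by -0.19 ± 0.11 and Ddit3, the stress factor Chop that induces Bcl2l11, by -0.19 ± 0.15 (SE). Trib3, a further target of endoplasmic reticulum stress, read 6.32, 6.04 and 6.20 in Prox1-OE samples, against 7.29, 6.16 and 6.44 in control samples. Control replicate 1 stood above the other 5 samples, and the difference was -0.44 ± 0.25 (SE; limma adjusted p = 0.824).

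The 9 family genes had a median size of difference of 0.11, regardless of sign, against 0.09 for all genes by their brightest probe set.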

How the data were processed

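RNA of 6 whole pancreas samples was measured on Affymetrix 3' arrays. The deposited values were log2 probe set summaries made by the authors; RMA and Partek 6.5 are named in the submitters' processing notes, with settings not given in the sources used here. RMA makes arrays share a distribution and compresses dim probe sets, so a change of total RNA cannot be seen. Of 45101 probe sets, 64 controls were left out. Each of the other 45037 was tested by limma 3.58.1 (lmFit, eBayes; R 4.3.3), two-sided, without covariates or filter, with Benjamini-Hochberg adjustment over all of them at 0.05. The fit was tested on simulated data. Array annotation gave 34945 of them 1 symbol (18193 genes). For lists, the probe set with the highest mean stood for the gene. Dim means a mean level under 5. Since the labels name no animals or litters, the spread of these 3 and 3 samples may be technical, and their number limits precision. In each SE, interval and p-value, eBayes drew that spread toward the spread common to all probe sets. The fit had 4 residual and 4.70 prior degrees of freedom.

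The genes named were all members and up to 4 genes of each pathway list with the smallest p. Others were up to 3 of each cell marker list with the highest mean, and genes most like the 3 members of largest spread. Cdkn1a and Mdm2 were named as well. The members and lists were chosen with earlier results of these data known. RNA quality, the log2 difference of 3' and 5' control probe sets, was 0.93 ± 0.01 in Prox1-OE and 0.95 ± 0.04 in control samples (SD, n = 3 each; exact two-sided permutation p = 0.7, smallest possible 0.1). Other settings were gene-level values, a filter on dim probe sets, repeated quantile normalization, median centring, eBayes with trend, weighted arrays, a block for replicate number, a threshold of 0.1 and leaving out each sample.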

Additional observations from a re-analysis of the deposited data

How the results depend on the processing

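In all 14 other fits and at an adjusted p of 0.1, 0 of the family probe sets passed in limma, with smallest adjusted p of 0.669 to 0.974 and 0 to 3 probe sets at an unadjusted p under 0.05. The pathway genes also gave 0 in each of the 14 fits. Over all probe sets, 5 passed, and 0 to 8 did without 1 sample: 0 without any 1 Prox1-OE sample, 1 without control replicate 1 or control replicate 2, and 8 without control replicate 3. With the replicate number as a block, 2 passed. Same-numbered samples had correlated deviations of 0.06, 0.17 and 0.10, so the numbers were not taken as pairs, although each sample correlated best with its own number. On their brightest probe sets, 7 of 9 genes kept their direction in every fit that held them; the fit of probe sets with a mean of at least 5 held neither Bak1, Bid nor Pmaip1. Bak1 turned to a difference of 0.094 with the mean of its probe sets, and ran from -0.132 to 0.067 without 1 sample. Bbc3 turned to 0.0081 with median centring and 0.016 with array weights, and ran from -0.098 to 0.065 without 1 sample. Bak1, Bid and Pmaip1 were dim, where RMA compresses differences. The number of arrays limits what could be seen.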

Other observations

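Control replicate 3 was the highest of the 6 samples on 3 of 4 probe sets of Bcl2l1 and 3 of 5 of Bcl2l11, a pro-survival and a pro-death gene, against 20.8% of all probe sets. Prox1-OE replicate 3 was the highest on 4 of 5 probe sets of Bcl2, against 14.7% of all probe sets. Over the 29 family probe sets, Prox1-OE replicate 1 and control replicate 3 were the highest on 9 each (31%), against 17.1% and 20.8% of all probe sets. Prox1-OE replicate 3 was the highest on 8 (27.6%), against 14.7%. These 3 samples are named because they were most often the highest. Probe sets of a gene share its transcripts, and no test was made of these counts.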
